A study of Mus musculus with 12 samples.

Results

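The claudins are membrane proteins that join into the strands of the tight junction. The members described here are Cldn1, Cldn2, Cldn3, Cldn4, Cldn5, Cldn6, Cldn7, Cldn8, Cldn11 and Cldn12, found by their symbols in the deposited counts. They leave out the claudins specific to the loop of Henle (Cldn10, Cldn16 and Cldn19), and they are 10 of the 36186 genes listed. The level of Cldn11 was set against the levels of the other members across the genotypes.

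Claudins on adjoining cells bind each other across the space between epithelial or endothelial cells, and the members present decide whether a junction seals that path or lets chosen ions and water pass. In the kidney each stretch of the nephron has its own set, from the leaky proximal tubule to the tight collecting duct. Cldn11 is best known outside the nephron, from the myelin of oligodendrocytes and the barrier between Sertoli cells of the testis.

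The study sequenced total RNA of whole mouse kidneys taken at E18.5, in 12 libraries, 3 of each of 4 genotypes. The mice carried frameshift mutations, made by recombineering, in neighbouring Hox genes of the Abdominal-B class, and all were on a mixed background. Mutant kidneys were small in the study, and those of double mutants heterozygous for Hoxa11 were dysplastic as well. The question of the comparisons was which transcripts differ when Hox function of the Hoxa and Hoxc clusters is lost. The genotypes were wild type (replicates 30, 37 and 55), Hoxa9, Hoxa10 and Hoxa11 homozygous with Hoxc9, Hoxc10 and Hoxc11 heterozygous mutant (Hoxa-/- Hoxc+/-, replicates 20, 31 and 33), the same genes with the Hoxa alleles heterozygous and the Hoxc alleles homozygous mutant (Hoxa+/- Hoxc-/-, replicates 38 and 110 and 1 with a higher number), and a genotype whose label gives all of them as homozygous mutant (Hoxa-/- Hoxc-/-, called double mutants, replicates 24, 27 and 29). By the paper, the double mutants that were sequenced kept wild type Hoxa11 on 1 or both chromosomes, while Hoxa9, Hoxa10 and the Hoxc genes were homozygous mutant. Which of these Hoxa11 genotypes a given library has is not stated in its label. The 3 Hoxa+/- Hoxc-/- libraries came from a sequencing run of their own and the other 9 libraries from another, so for that genotype run and genotype cannot be told apart. Values of a genotype are given below in the order of its replicate numbers.

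Total counts ranged from 28616877 in Hoxa-/- Hoxc+/- replicate 20 to 47067903 in Hoxa+/- Hoxc-/- replicate 110. Levels are counts scaled to library size with TMM factors (CPM), and 3 counts correspond to 0.0614 CPM in the deepest library and 0.116 CPM in the shallowest, a floor that covers counting error only. Levels of different genes are compared per kilobase of exon (RPKM).

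The targeted genes were transcribed in every library. Hoxa9 was at 24.3, 24.3 and 26.4 CPM in wild type, 40.8, 26.7 and 27.1 in Hoxa-/- Hoxc+/-, 29.6, 32.0 and 30.9 in Hoxa+/- Hoxc-/-, and 26.5, 25.9 and 23.96 in double mutants. Hoxa10 was at 125.4, 152.0 and 164.5 CPM in wild type, 153.3, 103.4 and 107.0 in Hoxa-/- Hoxc+/-, 112.6, 103.6 and 114.1 in Hoxa+/- Hoxc-/-, and 100.2, 103.6 and 111.6 in double mutants. Hoxa11 was at 44.2, 52.6 and 59.7 CPM in wild type, 43.2, 51.8 and 52.2 in Hoxa-/- Hoxc+/-, 53.8, 61.5 and 52.8 in Hoxa+/- Hoxc-/-, and 37.1, 38.2 and 52.9 in double mutants. A frameshift allele is still transcribed, so these levels do not check the genotype labels. Hoxc9 was at 11.4, 11.7 and 15.6 CPM in wild type, 32.7, 11.7 and 12.6 in Hoxa-/- Hoxc+/-, 9.16, 11.0 and 13.9 in Hoxa+/- Hoxc-/-, and 11.0, 10.5 and 10.4 in double mutants. Hoxc10 was at 50.2, 58.8 and 66.9 CPM in wild type, 120.7, 45.3 and 41.6 in Hoxa-/- Hoxc+/-, 32.1, 36.6 and 51.6 in Hoxa+/- Hoxc-/-, and 37.8, 29.1 and 35.8 in double mutants. Hoxc11 was at 1.56, 1.59 and 1.83 CPM in wild type, 2.94, 1.57 and 1.32 in Hoxa-/- Hoxc+/-, 1.12, 1.49 and 2.01 in Hoxa+/- Hoxc-/-, and 1.04, 0.892 and 1.24 in double mutants. Of the 6 genes, Hoxa10 and Hoxc10 fell in double mutants against wild type, with log2 fold changes of -0.49 and -0.78 (edgeR, adjusted p = 0.0270 and 0.0127).

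A single library stood apart from the rest. Hoxa-/- Hoxc+/- replicate 20 had Pearson correlations of 0.952 and 0.946 across genes with the other libraries of its genotype, where the remaining pair had 0.995, and the spread (SD) of its log2 differences from the other 2 was 0.778, against 0.213 to 0.464 in the remaining 11 libraries. Genes are not independent replicates, so these values are descriptions. Among the claudins the same library had the lowest Cldn2 level of all 12 (20.9 CPM) and the highest Cldn3 level (54.4 CPM). Comparisons with its genotype are therefore given with and without it. Transcripts of the Y chromosome were present in all 3 wild type libraries, in Hoxa-/- Hoxc+/- replicate 20, in the Hoxa+/- Hoxc-/- libraries other than replicate 110 and in double mutant replicate 24, while the other libraries had Xist, so sex was uneven between the genotypes.

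All 10 members passed the filter on low counts in each comparison. Per kilobase, Cldn6, a claudin of embryonic epithelia, had the highest mean level in each genotype, at 88.9 ± 5.41 RPKM in wild type (SD, n = 3), 99.5 ± 10.1 in Hoxa-/- Hoxc+/-, 89.7 ± 1.08 in Hoxa+/- Hoxc-/- and 111.0 ± 13.7 in double mutants. In single libraries Cldn2 was above it in Hoxa-/- Hoxc+/- replicate 33, Hoxa+/- Hoxc-/- replicate 38 and double mutant replicate 27. The wild type order went on with Cldn5 (65.1 RPKM), Cldn8 (58.6), Cldn2 (46.8), Cldn7 (35.8), Cldn4 (33.9), Cldn11 (26.0), Cldn1 (23.1), Cldn3 (21.1) and Cldn12 (17.7). Of these neighbours only Cldn6 and Cldn5, and Cldn4 and Cldn11, had ranges that did not overlap in wild type.

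The place of Cldn11 in that order differed by genotype. It was number 7 of the 10 in wild type and in Hoxa+/- Hoxc-/- (28.0 ± 3.08 RPKM), number 6 in Hoxa-/- Hoxc+/- (34.4 ± 2.17 RPKM) and number 4 in double mutants (58.7 ± 12.1 RPKM). In Hoxa-/- Hoxc+/- its range overlapped those of its neighbours Cldn7 and Cldn1, and in Hoxa+/- Hoxc-/- that of Cldn4 above it. In double mutants its range overlapped that of Cldn8, next in the order at 58.0 ± 2.88 RPKM, and lay below that of Cldn5 at 78.5 ± 5.93 RPKM. The range of Cldn11 there (45.8 to 69.8 RPKM) also overlapped that of Cldn2, number 2 in the order (67.6 to 111.8 RPKM).

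**Figure D1:**
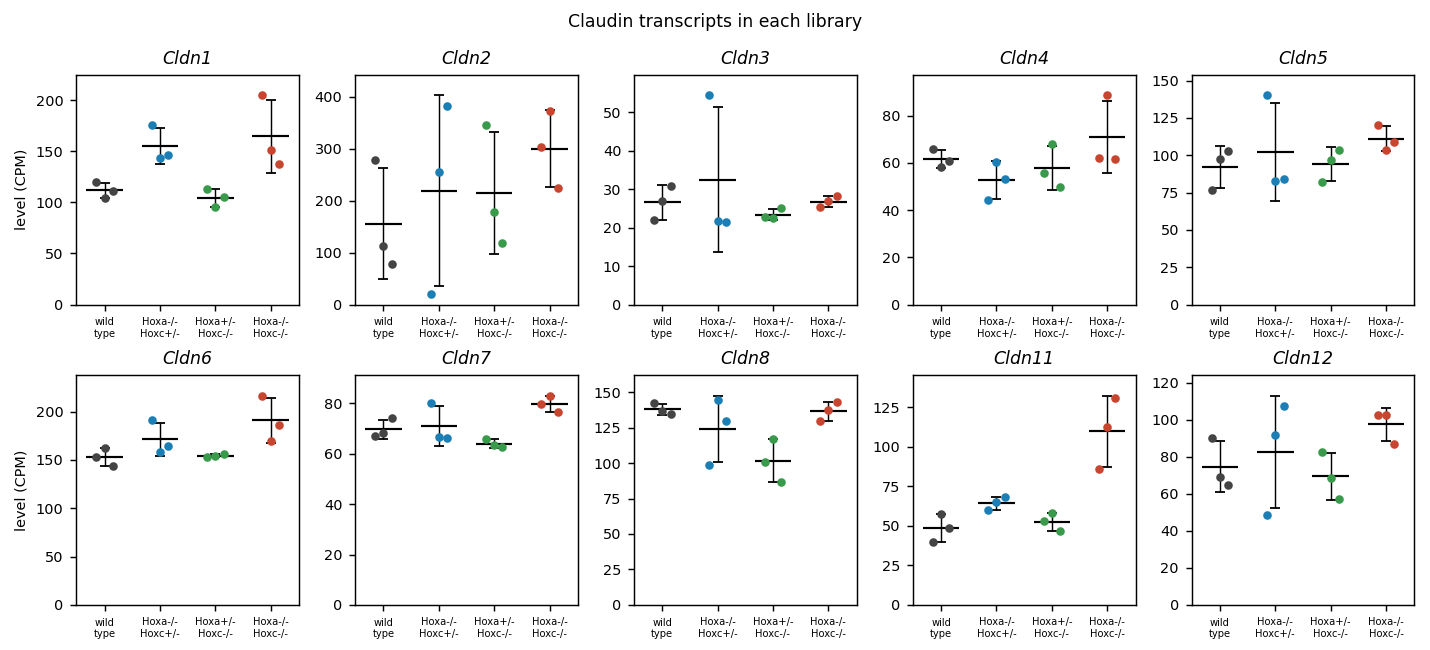
Level of each of the 10 claudins (CPM, vertical axis from 0) in each library by genotype, with the mean (bar) and SD (whiskers, n = 3). The double mutant libraries lie above all wild type libraries for Cldn1, Cldn5, Cldn6, Cldn7 and Cldn11, and Cldn2 is spread widely within each genotype.

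Double mutants were compared with wild type first, within 1 run. Of the 15839 genes tested by edgeR, 2171 passed the threshold of 0.05 on the adjusted p (13.7%), 999 of them higher in double mutants (6.31%). An unadjusted p under 0.05 was found for 5131 genes (32.4%). Of the 10 claudins 2 were called, Cldn11 and Cldn1, both higher. Libraries of the genotypes did not overlap, with double mutants higher, for 5 members (Cldn1, Cldn5, Cldn6, Cldn7 and Cldn11), and for 17.3% of all genes tested. Such a share was counted for this comparison and direction only. The median log2 fold change of the members was 0.29, beside -0.01 over all genes tested, and 9 of the 10 estimates were positive. Scaling by library size alone turned the estimate of Cldn3 from 0.01 to -0.05, and a correction for GC content and length turned that of Cldn8 from -0.02 to 0.01. Leaving out 1 library moved the counts to 3386 genes and 4 claudins (without wild type replicate 30), 535 and 1 (wild type 37), 633 and 1 (wild type 55), 793 and 1 (double mutant 24) or 1101 and 1 (double mutant 27), and Cldn11 was called in each of these fits.

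Cldn11 (Entrez 18417) lies on chromosome 3 from 31149920 to 31164326 in GRCm38. It was at 39.5, 57.7 and 48.6 CPM in wild type, 60.0, 64.8 and 68.1 in Hoxa-/- Hoxc+/-, 52.8, 58.0 and 46.5 in Hoxa+/- Hoxc-/-, and 85.7, 112.8 and 130.6 in double mutants. Every double mutant library was above all 9 others, and the lowest Hoxa-/- Hoxc+/- library was above the highest wild type library, whereas Hoxa+/- Hoxc-/- and wild type overlapped. Group means were 48.6 ± 9.09 CPM in wild type (SD, n = 3), 64.3 ± 4.06 in Hoxa-/- Hoxc+/-, 52.4 ± 5.76 in Hoxa+/- Hoxc-/- and 109.7 ± 22.6 in double mutants. Against wild type Cldn11 rose 2.25-fold in double mutants, with a log2 estimate of 1.17 (SE 0.18, edgeR, adjusted p = 0.00868), higher in 3 of 3 double mutant libraries. Its adjusted p lay between 1.4e-08 and 0.0312 over 9 alternatives of the processing, and between 0.0128 and 0.0398 over the 6 fits without 1 library. Among all genes tested 352 (2.22%) had a larger log2 fold change. With Xist as a covariate over all 12 libraries, the log2 fold change of Cldn11 was 1.01.

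Cldn1 (Entrez 12737), a sealing claudin of epidermis and of the parietal epithelium of the glomerulus, lies on chromosome 16 from 26356645 to 26371839. It was at 119.6, 104.3 and 111.1 CPM in wild type, 175.8, 143.1 and 146.3 in Hoxa-/- Hoxc+/-, 112.6, 95.3 and 104.8 in Hoxa+/- Hoxc-/-, and 204.5, 151.7 and 137.3 in double mutants. All libraries of both genotypes labelled Hoxa-/- were above all libraries of wild type and Hoxa+/- Hoxc-/-, and the Hoxa-/- genotypes overlapped each other. The share of all genes with this order was not counted. The Hoxa+/- Hoxc-/- libraries came from another run, and by the paper the double mutants kept wild type Hoxa11. In double mutants Cldn1 rose 1.47-fold against wild type, with a log2 estimate of 0.56 (SE 0.15, edgeR, adjusted p = 0.0437), higher in 3 of 3 libraries. In edgeR fits without 1 library this call was lost without wild type replicate 37 (0.52, adjusted p = 0.141), wild type replicate 55 (0.55, 0.131), double mutant replicate 24 (0.37, 0.0760) or double mutant replicate 27 (0.61, 0.0734), and the adjusted p lay between 0.00266 and 0.0894 over 9 alternatives.

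The list of parietal and podocyte genes, for the glomerulus, was set beside Cldn1. In double mutants 5 of its 8 genes rose against wild type, beside 6.31% of all genes tested. The median log2 fold change of the list was 0.46, beside -0.01 over all genes tested. The summed level was 1440.4, 1533 and 1518 CPM in wild type, 1054, 1647 and 1514 in Hoxa-/- Hoxc+/-, 1740.2, 1624 and 1731 in Hoxa+/- Hoxc-/-, and 1987, 2123 and 1743 in double mutants. Double mutants lay above wild type without overlap, Podxl was the most abundant gene in each library and 0 of the 8 were at 0. The part of these transcripts in the Cldn1 result was not tested.

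The promoters of Cldn11 and Cldn1 are shown because both were called higher in double mutants against wild type. Their patterns over libraries differed, with a Pearson correlation of 0.448 between their log2 CPM in the 9 libraries of 1 run. RefSeq (GRCm38.p6) had promoter windows for 9 of the 10 members, 12 windows in all. The 250 bases before the start are given 5′ to 3′ on the strand of the gene. They were searched on both strands, a choice made after the values were seen, for TTTATNG and TTTACGA, neither of which holds the other, and which are of the AT-rich kind preferred by Hox proteins of the Abdominal-B class. Motif matches would be in capitals.
Cldn11, chr3:31149670-31149919, plus strand: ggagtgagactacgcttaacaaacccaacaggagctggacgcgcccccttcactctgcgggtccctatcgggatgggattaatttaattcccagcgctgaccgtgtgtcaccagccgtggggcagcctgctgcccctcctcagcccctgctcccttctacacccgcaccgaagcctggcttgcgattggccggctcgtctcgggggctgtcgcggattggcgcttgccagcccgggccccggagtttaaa
Cldn1, chr16:26371840-26372089, minus strand: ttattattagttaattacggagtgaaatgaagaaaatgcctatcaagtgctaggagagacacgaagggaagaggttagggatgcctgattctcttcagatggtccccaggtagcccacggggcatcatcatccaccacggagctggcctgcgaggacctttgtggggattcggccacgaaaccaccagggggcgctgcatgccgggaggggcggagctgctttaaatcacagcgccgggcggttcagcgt
TTTATNG was in 0 of the 12 windows of the members and in 9.81% of the 32851 windows of all genes, and TTTACGA in 0 of the 12 and in 0.478% of all. This says only that these letters are absent from these windows. The window of Cldn11 had 63.6% G and C with 19 CG pairs, and that of Cldn1 had 55.6% with 14, beside a median of 52.4% G and C over all windows.

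The share of Cldn11 among the claudins was also higher in double mutants. As a percentage of the summed RPKM of the 10 members, Cldn11 made up 4.78, 7.49 and 6.55 in wild type, 7.18, 7.55 and 7.32 in Hoxa-/- Hoxc+/-, 6.32, 7.45 and 6.61 in Hoxa+/- Hoxc-/-, and 8.12, 10.6 and 13.2 in double mutants. On this scale the lowest double mutant share was above the highest share of the other 9 libraries. As a share of summed CPM, with no length, the groups overlapped: double mutant replicate 24 was at 6.45%, below wild type replicate 37 (6.46%) and Hoxa-/- Hoxc+/- replicate 20 (6.57%). Mean shares were 6.28 ± 1.37% in wild type (SD, n = 3), 7.35 ± 0.185% in Hoxa-/- Hoxc+/-, 6.79 ± 0.589% in Hoxa+/- Hoxc-/- and 10.6 ± 2.55% in double mutants. Without Cldn11 the members summed to 420.7, 381.3 and 370.9 RPKM in wild type and 518.5, 510.7 and 458.5 RPKM in double mutants, so the remaining 9 claudins together were also higher in each double mutant library than in any wild type library.

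**Figure D2:**
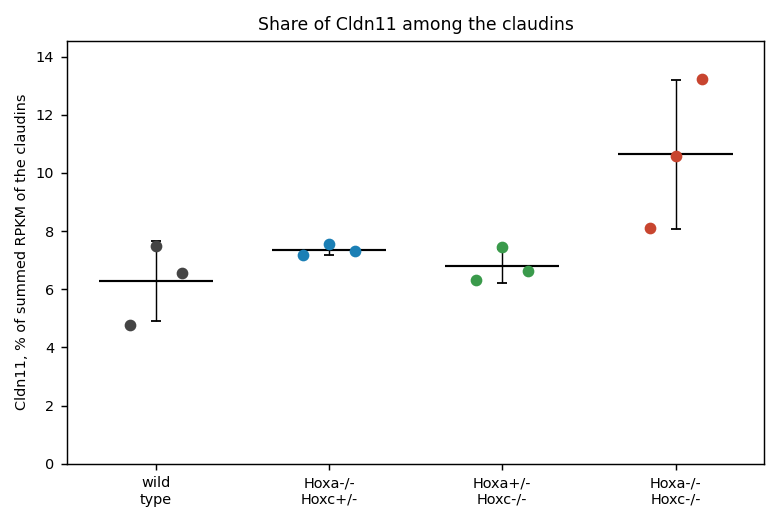
Cldn11 as a percentage of the summed RPKM of the 10 claudins (vertical axis from 0) in each library by genotype, with the mean (bar) and SD (whiskers, n = 3). The double mutant libraries lie between 8.12% and 13.2%, above the other 9 on this scale, though not as shares of summed CPM.

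Cldn11 was set beside a list of 12 stromal genes, among them collagens, Dcn, Lum and Pdgfra. In double mutants 11 of the 12, all but Pdgfrb, rose against wild type, beside 6.31% of all genes tested. The median log2 fold change of the list was 1.70, beside -0.01 over all genes tested. The summed level of the list was 4354, 4406 and 4164 CPM in wild type, 5973, 6034 and 4602 in Hoxa-/- Hoxc+/-, 5299, 6683 and 7321 in Hoxa+/- Hoxc-/-, and 11773, 14287 and 12805 in double mutants. Col3a1 was its most abundant gene, and 0 of the 12 were at 0. As a percentage of that sum, Cldn11 was 0.908, 1.31 and 1.17 in wild type, 1.00, 1.07 and 1.48 in Hoxa-/- Hoxc+/-, 0.996, 0.867 and 0.635 in Hoxa+/- Hoxc-/-, and 0.728, 0.790 and 1.02 in double mutants. These percentages of double mutants and wild type overlapped, unlike the levels of Cldn11 itself. In whole kidneys, fewer cells of a type and less RNA per cell cannot be told apart, and the part of the stromal transcripts in the Cldn11 result was not tested.

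Lists for the cell types in which Cldn11 is best known were set beside it too. In double mutants 6.31% of all genes tested rose against wild type. Of the list of Schwann cells and oligodendrocytes 8 of 9 genes were tested and 2 rose, Sox10 (0.396 to 1.25 CPM) and S100b (0.234 to 0.886 CPM). Its sum was 92.8, 71.5 and 71.7 CPM in wild type, 63.8, 87.7 and 85.8 in Hoxa-/- Hoxc+/-, 95.9, 90.4 and 81.8 in Hoxa+/- Hoxc-/-, and 84.7, 96.4 and 85.9 in double mutants. Erbb3, also a gene of renal epithelia, was its most abundant gene averaged over the 12 libraries (Cnp was above it in 4 of them), 0 of its genes were at 0 in all libraries, and the myelin gene Mbp was at 21.6 CPM in wild type and 21.9 CPM in double mutants. Of the Sertoli cell list 4 of 7 genes were tested and Inhbb rose (4.04 to 6.32 CPM), with a median log2 fold change of -0.24 and 3 genes called by DESeq2. The sum of that list was 36.7, 42.6 and 44.7 CPM in wild type, 77.3, 42.0 and 35.2 in Hoxa-/- Hoxc+/-, 36.4, 43.6 and 46.3 in Hoxa+/- Hoxc-/-, and 32.99, 27.7 and 36.5 in double mutants. The sum was lower in all double mutant libraries than in wild type, the closest pair being 36.5 and 36.7 CPM. Its most abundant gene was Sox9, also a gene of the ureteric bud, at 30.5, 35.8 and 37.6 CPM in wild type and 23.3, 17.7 and 28.1 CPM in double mutants, and Dmrt1 did not pass 3 counts in any library. Of the list of leptomeninges and perineurium, 1 of 7 genes rose, Foxd1, which is on the stromal list as well. That sum was 647.9, 467.9 and 414.1 CPM in wild type, 411.4, 601.1 and 775.7 in Hoxa-/- Hoxc+/-, 768.7, 459.8 and 485.2 in Hoxa+/- Hoxc-/-, and 749.4, 866.9 and 595.5 in double mutants, with 0 genes at 0. Its most abundant gene was Slc22a6, a transporter of the proximal tubule, in 7 libraries and Slc2a1 in the other 5. The part of these cell types in the Cldn11 result was not tested.

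**Figure D3:**
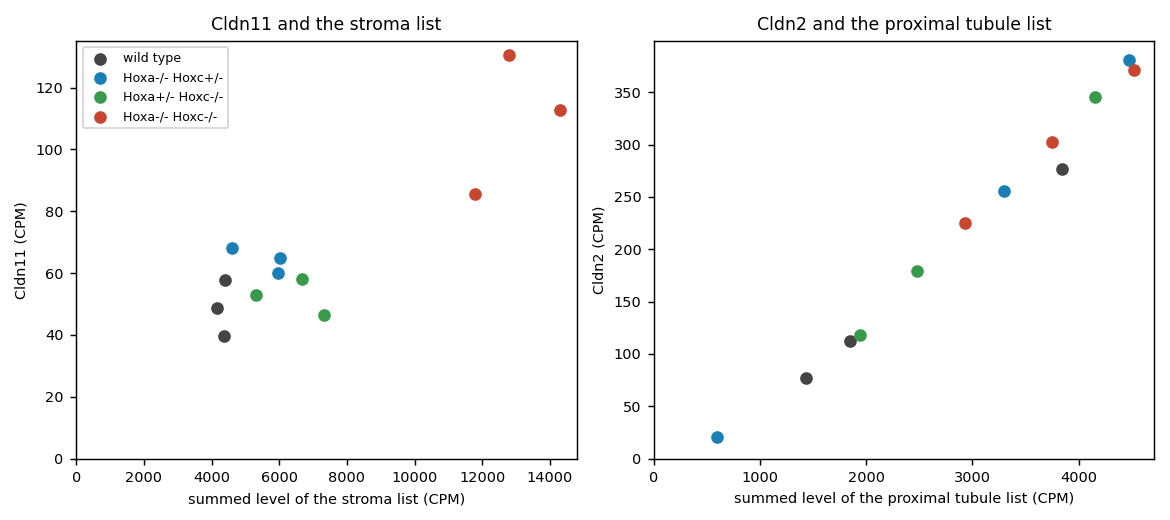
Left, the level of Cldn11 (CPM) against the summed level of the stromal list (CPM). Right, the level of Cldn2 (CPM) against the summed level of the proximal tubule list (CPM). Each point is 1 of the 12 libraries, coloured by genotype. Double mutants lie highest on both axes on the left. On the right Cldn2, from 20.9 to 381.3 CPM, is mostly higher in libraries where the list is higher. The order is not strict: double mutant replicate 27 has the highest sum, and Hoxa-/- Hoxc+/- replicate 33 the highest Cldn2. Wild type replicate 30 has a higher sum than double mutant replicate 24 and less Cldn2.

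Genes whose levels went most closely with Cldn11 were named by Pearson's r of log2 CPM, as a description. Over the 9 libraries sequenced together the 8 highest included Fam26e (r = 0.980), Sdc3 (0.978), Mmp16 (0.971), Pdgfra (0.965), Emilin1 (0.964), Plxnc1 (0.952) and Kcnk3 (0.947). The 12 libraries of both runs gave Bank1 (r = 0.938), Sprr2g (0.928), Col25a1 (0.925), Olfml3 (0.925), Selp (0.923), Bace2 (0.916), Fam26e (0.916) and Calhm2 (0.914). Leaving out replicate 20 of Hoxa-/- Hoxc+/- from the 9, a choice made after its distance was seen, gave Lrrc4b (r = 0.985), Fam26e (0.982), Sdc3 (0.981), Emilin1 (0.979), Tmem236 (0.976), Gjd3 (0.976), Mmp16 (0.973) and Pdgfra (0.970). Fam26e was among the 8 in all 3 sets of libraries. It was at 1.38, 1.84 and 1.61 CPM in wild type, 1.97, 1.88 and 2.27 in Hoxa-/- Hoxc+/-, 1.56, 1.80 and 2.14 in Hoxa+/- Hoxc-/-, and 2.27, 2.85 and 3.49 in double mutants. The highest r of another claudin with Cldn11 over the 9 libraries was 0.584 (Cldn7), then 0.579 (Cldn6), and the lowest was -0.00411 (Cldn3). Without replicate 20 Cldn3 was at 0.280, Cldn5 went from 0.382 to 0.633, Cldn7 was again the highest (0.692) and Cldn8 the lowest (-0.0140).

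Cldn2 (Entrez 12738), which forms a pore for cations and water in the proximal tubule, lies on chromosome X from 139800808 to 139811386. It was at 277.1, 112.5 and 77.3 CPM in wild type, 20.9, 255.3 and 381.3 in Hoxa-/- Hoxc+/-, 345.1, 178.8 and 118.3 in Hoxa+/- Hoxc-/-, and 302.5, 371.8 and 224.9 in double mutants. Levels overlapped among all genotypes, and the coefficient of variation within a genotype was 68.5% in wild type, 83.5% in Hoxa-/- Hoxc+/-, 54.9% in Hoxa+/- Hoxc-/- and 24.5% in double mutants. Against wild type the double mutant estimate was 0.94 (SE 0.43, edgeR, adjusted p = 0.176). Without wild type replicate 30 it was 1.66 and passed the threshold (edgeR, adjusted p = 0.00915, with 0.00915 to 0.385 over the 6 fits without 1 library).

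The 13 genes of the proximal tubule list were set beside Cldn2 by their sum, which not each single gene follows. Their summed level was 3842, 1847 and 1432 CPM in wild type, 589.4, 3294 and 4475 in Hoxa-/- Hoxc+/-, 4155, 2474 and 1942 in Hoxa+/- Hoxc-/-, and 3749, 4517 and 2933 in double mutants, with 0 of the 13 at 0. Lrp2 was the most abundant gene in 10 libraries and Slc34a1 in Hoxa-/- Hoxc+/- replicate 33 and Hoxa+/- Hoxc-/- replicate 38. Cldn2 made up between 3.54% of that sum, in Hoxa-/- Hoxc+/- replicate 20, and 8.52%, in replicate 33 of the same genotype. In wild type it was 7.21, 6.09 and 5.40%, and in double mutants 8.07, 8.23 and 7.67%. Of the 13 genes 0 were called in double mutants against wild type by edgeR (1 at an unadjusted p under 0.05, 0 by DESeq2). The part of the proximal tubule transcripts in the spread of Cldn2 was not tested.

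Cldn4, Cldn7 and Cldn8 are claudins of the distal nephron and collecting duct, where Cldn4 and Cldn8 act together in a chloride path. Cldn8 (Entrez 54420) was at 142.3, 137.1 and 134.8 CPM in wild type, 98.6, 144.4 and 129.4 in Hoxa-/- Hoxc+/-, 100.9, 117.0 and 86.6 in Hoxa+/- Hoxc-/-, and 129.4, 137.7 and 142.8 in double mutants. All Hoxa+/- Hoxc-/- libraries were below all wild type libraries, while double mutants and wild type covered nearly the same range. Its estimate in double mutants against wild type was -0.02 (SE 0.07, edgeR, adjusted p = 0.891). Cldn7 (Entrez 53624) was at 66.9, 68.1 and 74.1 CPM in wild type, 80.1, 66.5 and 66.2 in Hoxa-/- Hoxc+/-, 66.0, 63.4 and 62.7 in Hoxa+/- Hoxc-/-, and 79.8, 83.0 and 76.7 in double mutants. Double mutants lay above wild type and Hoxa+/- Hoxc-/- below it, without overlap. The share of all genes with Hoxa+/- Hoxc-/- below wild type was not counted, for Cldn7 or Cldn8. The double mutant estimate of Cldn7 was 0.20 (SE 0.07, edgeR, adjusted p = 0.107), short of the threshold. Cldn4 ranged from 58.5 to 65.7 CPM in wild type and from 61.8 to 88.5 CPM in double mutants, with an estimate of 0.20 (SE 0.14, edgeR, adjusted p = 0.363).

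The summed level of collecting duct markers overlapped between double mutants and wild type, while single genes differed. Of 11 genes on that list 2 fell in double mutants, Gata3 (-0.65, edgeR, adjusted p = 0.0113) and Elf5 (-0.56, adjusted p = 0.0347), beside 1172 of all 15839 genes tested. The summed level of the list was 1527, 1380.4 and 1504 CPM in wild type, 1234, 1458 and 1401 in Hoxa-/- Hoxc+/-, 1539.6, 1533 and 1262 in Hoxa+/- Hoxc-/-, and 1429, 1711 and 1468 in double mutants. Krt8 lay higher in all double mutant libraries and was not called (0.29, edgeR, adjusted p = 0.0703). Averaged over the 12 libraries Tfcp2l1 was the most abundant gene of the list, and 0 were at 0. Cldn8 as a percentage of that sum was 9.32, 9.93 and 8.96 in wild type and 6.55, 7.63 and 6.86 in Hoxa+/- Hoxc-/-, without overlap. In double mutants the same percentage was 9.06, 8.05 and 9.73. Cldn4 was 4.30, 4.24 and 4.04% of the sum in wild type and 4.36, 5.17 and 4.21% in double mutants, and Cldn7 was 4.38, 4.93 and 4.92% and 5.59, 4.85 and 5.22%.

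Cldn5 (Entrez 12741), the main claudin of endothelium, was at 76.5, 97.3 and 102.8 CPM in wild type, 140.1, 82.7 and 84.2 in Hoxa-/- Hoxc+/-, 81.8, 97.0 and 103.9 in Hoxa+/- Hoxc-/-, and 120.3, 103.8 and 109.2 in double mutants. The double mutant libraries were all above wild type, the closest pair being 103.8 and 102.8 CPM. The estimate was 0.27 (SE 0.12, edgeR, adjusted p = 0.161). Of 10 endothelial genes 1 rose, Ehd3 (0.42, edgeR, adjusted p = 0.0302), beside 6.31% of all genes tested. The sum of the 10 genes was 1094, 1197 and 1112 CPM in wild type, 1008.02, 1103 and 1113 in Hoxa-/- Hoxc+/-, 1110.3, 1118 and 1161 in Hoxa+/- Hoxc-/-, and 1225, 1289.6 and 1217 in double mutants, with Cdh5 the most abundant gene averaged over the 12 libraries and 0 genes at 0. Cldn5 made up 6.996, 8.13 and 9.24% of that sum in wild type and 9.82, 8.05 and 8.97% in double mutants, and 13.9% in Hoxa-/- Hoxc+/- replicate 20.

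Cldn6 (Entrez 54419) was at 153.1, 162.3 and 143.6 CPM in wild type, 191.0, 158.1 and 164.8 in Hoxa-/- Hoxc+/-, 153.0, 153.8 and 156.5 in Hoxa+/- Hoxc-/-, and 216.5, 170.1 and 186.4 in double mutants. Double mutants lay above wild type without overlap, and Hoxa+/- Hoxc-/- lay within the wild type range. The double mutant estimate was 0.32 (SE 0.10, edgeR, adjusted p = 0.0759). DESeq2 called it (adjusted p = 0.0284, with 0.0284 to 0.179 over 9 alternatives), as did edgeR with Xist as a covariate (0.0429). Cldn12 (Entrez 64945), an atypical claudin with no ZO-binding end, ranged from 64.8 to 90.3 CPM in wild type and from 87.2 to 102.9 CPM in double mutants. Its estimate was 0.38 (SE 0.13, edgeR, adjusted p = 0.0941), which passed the threshold without wild type replicate 30 (0.55, adjusted p = 0.0125, with 0.0125 to 0.259 over the 6 fits without 1 library) and by DESeq2 (adjusted p = 0.0379, with 0.0379 to 0.692 over 9 alternatives). Cldn3 (Entrez 12739), a sealing claudin of many epithelia, ranged from 22.0 to 30.96 CPM in wild type and from 25.3 to 28.2 CPM in double mutants, with an estimate of 0.01 (SE 0.13, edgeR, adjusted p = 0.971).

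**Figure D4:**
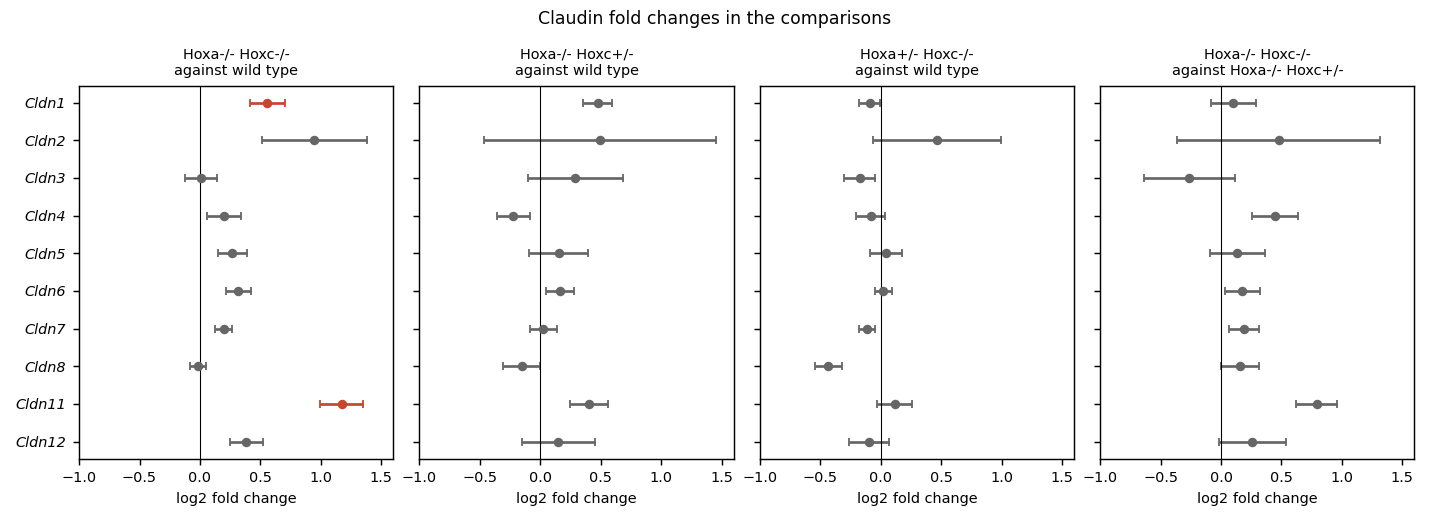
Log2 fold change (horizontal axis) of each of the 10 claudins in the 4 comparisons, with lines of 1 SE to each side. Cldn11 and Cldn1, called by edgeR in double mutants against wild type, are in red, and the other estimates are in grey.

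The partners of the claudins at the junction were set beside them. Of 25 tight junction partners tested, scaffolds, polarity proteins and other membrane proteins, 0 were called in double mutants against wild type by edgeR, 5 had an unadjusted p under 0.05 and DESeq2 called 2. Over all genes tested 32.4% had an unadjusted p under 0.05. Their median log2 fold change was 0.07, beside 0.29 for the claudins. Tjp1, the scaffold that ties claudins to actin, was at 291.0 CPM on average in double mutants and 309.3 CPM in wild type (-0.09, edgeR, adjusted p = 0.370). Ocln, another strand protein, was at 60.7 and 47.6 CPM (0.35, edgeR, adjusted p = 0.0868). Among 13 genes of epithelial adhesion, 2 fell in double mutants, beside 1172 of all 15839 genes tested. The 2 adhesion genes were Epcam, a partner of Cldn7 at the membrane (-0.28, edgeR, adjusted p = 0.0472), and Grhl2, a transcription factor of epithelia (-0.41, adjusted p = 0.0396). Cdh1, the cadherin of epithelia, had an estimate of 0.18 (edgeR, adjusted p = 0.203).

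Among 16 other claudin and claudin domain genes 8 were tested in double mutants against wild type, and 3 rose by edgeR, beside 6.31% of all genes tested. Cldn14 was at 0.239, 0.392 and 0.297 CPM in wild type and 2.06, 4.79 and 0.769 CPM in double mutants, with an estimate of 3.02 (SE 0.66, edgeR, adjusted p = 0.0264). The double mutant values were all higher but differed widely, and by edgeR the call was lost without wild type replicate 37 (adjusted p = 0.0864) or 55 (0.0960) or double mutant replicate 24 (0.0613) or 27 (0.0528). Cldn16, which with Cldn19 forms the cation path of the thick ascending limb, was at 12.5, 13.7 and 14.1 CPM in wild type and 20.3, 27.8 and 17.4 CPM in double mutants (0.70, SE 0.17, edgeR, adjusted p = 0.0380). That call was lost without any 1 of wild type replicates 30 (0.0561), 37 (0.112) and 55 (0.103) and double mutant replicates 24 (0.0816) and 27 (0.0585). Cldn19 was at 68.4, 62.4 and 62.3 CPM in wild type and 79.8, 90.2 and 80.9 CPM in double mutants (0.38, SE 0.08, edgeR, adjusted p = 0.0233). Its call was lost without wild type replicate 37 (0.0929) or 55 (0.0925) or double mutant replicate 24 (0.0577) or 27 (0.0528). Of 9 alternatives of the processing, the call held in 8 for Cldn14, 6 for Cldn16 and 5 for Cldn19. Cldn10 (76.3 and 85.4 CPM on average), Cldn9 (17.8 and 11.2), Cldn15 (10.9 and 16.3), Cldn23 (1.41 and 1.07) and Cldnd1 (75.9 and 76.7) were not called by edgeR. DESeq2 called 4 of the 8 tested genes, and 3312 genes in all. Cldn9 lay lower in all double mutant libraries than in wild type (-0.67, edgeR, adjusted p = 0.115). Cldn13, Cldn17, Cldn18, Cldn20, Cldn24 and Cldnd2 were at 0.147 CPM or less in each library, and Cldn22 and Cldn25 had no counts. Genes were found by symbol, except 2 of these that carry older symbols in the deposited counts and were matched by Entrez number. There Cldnd1 is listed as Cldn25 and Cldn25 as Cldn21.

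The other lists of segments and cell types give the setting of these claudins in double mutants against wild type. Over all 15839 genes tested by edgeR, 999 rose (6.31%) and 1172 fell. Of the loop of Henle list, 9 genes that include Cldn10, Cldn16 and Cldn19, 2 rose (Cldn16 and Cldn19) and 1 fell (Ppp1r1b). Of cap mesenchyme genes 5 of 8 fell (Cited1, Gdnf, Meox1, Crym and Sall1), and of ureteric bud tip genes 6 of 7 fell. Of smooth muscle genes 4 of 6 rose (Acta2, Myh11, Tagln and Actg2), of urothelial genes 2 of 8 (Upk3b and Krt20) and of liver genes 2 of 7 (Alb and Ttr). For the 7 genes of the distal and connecting tubule 0 were called by edgeR (0 at an unadjusted p under 0.05, 0 by DESeq2), for the 6 of intercalated cells 0 (2 and 0), for the 6 erythroid genes 0 (4 and 2) and for the 4 tested genes of the sex list 0 (0 and 1). The part of these cell types in the claudin results was not tested.

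Hoxa-/- Hoxc+/- kidneys were compared with wild type within the same run. By edgeR 0 of the 10 claudins and 0 of 15789 genes (0%) were called, with 2 claudins and 360 genes at an unadjusted p under 0.05, and 0 claudins and 18 genes called by DESeq2. The members' median was 0.16, beside 0.03 over all genes tested. Cldn1 and Cldn11 were the members with unadjusted p under 0.05. For Cldn11 the estimate was 0.40 (SE 0.15, edgeR, adjusted p = 1.00), and for Cldn1 it was 0.47 (SE 0.12, edgeR, adjusted p = 1.00). Without replicate 20 these were 0.45 and 0.37 (edgeR, both with adjusted p = 0.431), 8 genes were called and 0 claudins. In the same fit the estimates of Cldn3, Cldn5 and Cldn7 turned from 0.29, 0.15 and 0.03 to -0.30, -0.15 and -0.08.

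Double mutants were compared with Hoxa-/- Hoxc+/- kidneys. By the labels these differ in the Hoxc alleles alone, but by the paper the double mutants also kept wild type Hoxa11, so loss of Hoxc and presence of Hoxa11 cannot be told apart here. By edgeR 0 of the 10 claudins and 0 of 15764 genes (0%) were called, with 1 claudin and 1787 genes at an unadjusted p under 0.05, and 1 claudin and 489 genes called by DESeq2. That claudin was Cldn11 both times, at 0.79 (SE 0.17, edgeR, adjusted p = 0.218), and the double mutant libraries were all above the Hoxa-/- Hoxc+/- libraries. The adjusted p of Cldn11 lay between 0.00931 and 0.283 over 9 alternatives. Without replicate 20 of Hoxa-/- Hoxc+/- 687 genes were called and Cldn5 was the 1 claudin among them (0.44, edgeR, adjusted p = 0.0396), while Cldn11 was at 0.75 (adjusted p = 0.0602). Cldn4 also lay higher in all double mutant libraries (61.8 CPM and above) than in Hoxa-/- Hoxc+/- (60.6 CPM and below), with an estimate of 0.44 (SE 0.19, edgeR, adjusted p = 0.449). The share of all genes separated in this way was not counted. The median of the members was 0.18, beside -0.01 over all genes tested.

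Hoxa+/- Hoxc-/- kidneys were compared with wild type across runs, so run and genotype cannot be told apart. By edgeR 376 of 15902 genes (2.36%) and 0 of the 10 claudins were called, with 1 claudin and 3349 genes (21.1%) at an unadjusted p under 0.05, and 1 claudin and 1284 genes called by DESeq2. That claudin was Cldn8, at -0.43 (SE 0.11, edgeR, adjusted p = 0.0914) and -0.44 by DESeq2 (adjusted p = 0.0121, with 0.0121 to 0.524 over 8 alternatives). Cldn11 had an estimate of 0.12 (SE 0.15, edgeR, adjusted p = 0.685) and Cldn1 of -0.09 (SE 0.09, edgeR, adjusted p = 0.591). Without wild type replicate 30 the estimate of Cldn11 was -0.02. The gene count was 60 without wild type replicate 37, 70 without wild type 55, 63 without Hoxa+/- Hoxc-/- replicate 110 and 99 without the one of the highest number, with 0 claudins each time. The members' median was -0.09, beside 0.01 over all genes tested, and 3 of the 12 stromal genes rose by edgeR (Col3a1, Lum and Postn). Of the 12 stromal genes 10 had an unadjusted p under 0.05, DESeq2 called 10, and their median log2 fold change was 0.53. These comparisons share their wild type libraries, and the difference between genotypes in their distance from wild type was tested only in the comparison of double mutants with Hoxa-/- Hoxc+/-.

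The Audic-Claverie test, which the study names, was also run, here on counts summed within a genotype, a choice of the present work, with a fold above 2 and an expression minimum of 10 RPKM in 3 libraries. It called 1 of the 10 claudins in double mutants against wild type. That was Cldn11, with 12463 counts in double mutants and 5959 in wild type (log2 ratio 1.09), and 69 genes were called in all. Cldn2, at a log2 ratio of 0.93, had a p under the threshold and fell just short of the fold. On summed counts this test covers counting error only and not the spread between animals, and 9 of the 10 claudins had a p under its threshold, so the fold decided the calls.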

How the data were processed

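Total RNA of 12 whole kidneys was measured, 3 per genotype, with genotypes taken from the labels. The authors aligned paired-end reads to mm10, dropped reads that aligned to more places, and quantified each Entrez gene as the deposited expected counts. They also deposited log2 values normalized between libraries and shifted to a median of 0 per gene. These counts, as whole numbers, went into edgeR 4.0.16 under R 4.3.3 (TMM, filterByExpr with minimum count 10 and minimum total 15, quasi-likelihood test, Benjamini-Hochberg over all genes tested, threshold 0.05), on the 6 libraries of each comparison. SE is the estimate divided by the root of F. CPM used TMM over the 12 libraries, and RPKM divided CPM by GENCODE M21 exon length. Total counts were 28616877 to 47067903 per library, and floors of 3 counts cover counting error only. Positions and promoters are from RefSeq GRCm38.p6. The fits and the Audic-Claverie test were tested on simulated data.

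Alternatives were RLE factors, library size only, no filter, fits of 12 or 9 libraries, Xist as a covariate, GC content and length correction in 20 quantile bins (prior count 0.5), DESeq2 1.42.0, limma 3.58.1 on the deposited log2 values, a version of the study's criteria (Audic-Claverie, with counts summed within a genotype as a choice made here), shares from CPM, and leaving out each library. Added after seeing the data was the likeness to Cldn11 without replicate 20 of Hoxa-/- Hoxc+/-, and the promoter search. Python 3.11.15, pandas 2.3.3, numpy 2.4.6, scipy 1.17.1 and matplotlib 3.10.9 were used for tables and figures.

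Named genes are the 10 members, other claudins with a count, junction and adhesion genes that passed the test with Tjp1, Ocln, Cdh1 and Epcam, genes of lists given beside a claudin, and the 8 genes most like Cldn11. A few genes that this rule names are not reported here. Members and the 23 lists were chosen with earlier results of these data known. Of 24 per-sample columns, 0 had no sample.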

Additional observations from a re-analysis of the deposited data

How the results depend on the processing

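For the 9 members other than Cldn11, and for Cldn14, Cldn16 and Cldn19 in double mutants against wild type, 576 values were recomputed. Of these, 508 kept their direction and their side of the threshold, 28 lost a call, 8 gained one and 32 changed direction, leaving out a library included. Cldn11 in double mutants against wild type was called in 9 of 9 alternatives (1.01 to 1.18) and in 6 of 6 fits without 1 library (1.03 to 1.32). Cldn1 was called in 6 of 9 (0.50 to 0.71) and 2 of 6 (0.37 to 0.67). No paired analysis was made, because the labels do not give litters and no replicate number is shared between genotypes. With 3 libraries per genotype, small changes may be missed, and at 3 counts the floor is 0.0614 to 0.116 CPM. Where a value changed, the cause was not tested.

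For double mutants against wild type, claudins and genes called were 4 and 3312 by DESeq2, 1 and 1196 by limma, 1 and 690 with 9 libraries in the fit, 1 and 69 by the Audic-Claverie criteria, 1 claudin with library size only, 1190 genes with all 12 libraries and 984 with Xist as a covariate. Without 1 library they ranged from 1 to 4 claudins and from 535 to 3386 genes. Cldn1 was at 0.50 with library size only, 0.56 with 9 libraries and 0.55 by limma, short of the threshold. Cldn3 turned to -0.054 with library size only (-0.11 to 0.13 without 1 library) and Cldn8 to 0.011 with GC content and length correction (-0.049 to 0.023).

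For Hoxa-/- Hoxc+/- against wild type, genes called were 2 with all 12 libraries, 18 by DESeq2 and 1 by limma, and 0 to 8 without 1 library. Cldn2 turned to -0.38 with Xist as a covariate and -0.082 by limma, Cldn7 to -0.061 with library size only and -0.0076 with GC content and length correction, and Cldn12 to -0.091 with Xist as a covariate. Ranges without 1 library were -0.17 to 1.21 for Cldn2, -0.30 to 0.52 for Cldn3, -0.15 to 0.28 for Cldn5, -0.075 to 0.073 for Cldn7 and -0.085 to 0.41 for Cldn12.

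For Hoxa+/- Hoxc-/- against wild type, 1 claudin (Cldn8) was called with Xist as a covariate (-0.57) and 1 by DESeq2 (-0.44). Genes called were 149 with all 12 libraries, 124 with Xist as a covariate, 122 with GC content and length correction, 1284 by DESeq2, 104 by limma and 60 to 549 without 1 library. Cldn1 turned to 0.012 with Xist as a covariate and 0.10 with GC content and length correction, and Cldn3 to 0.010 with Xist as a covariate. Ranges without 1 library were -0.065 to 1.17 for Cldn2, -0.22 to 0.014 for Cldn4, -0.087 to 0.12 for Cldn5, -0.024 to 0.067 for Cldn6, -0.021 to 0.26 for Cldn11 and -0.25 to 0.054 for Cldn12.

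For double mutants against Hoxa-/- Hoxc+/-, 1 claudin (Cldn11) was called with all 12 libraries (0.77), 1 with Xist as a covariate (0.79) and 1 by DESeq2 (0.79), and 0 to 1 without 1 library. Genes called were 1 with no filter, 540 with all 12 libraries, 181 with 9, 646 with Xist as a covariate, 2 with GC content and length correction, 489 by DESeq2 and 0 to 687 without 1 library. Ranges without 1 library were -0.082 to 0.22 for Cldn1, -0.061 to 1.12 for Cldn2, -0.50 to 0.33 for Cldn3, -7.3e-04 to 0.44 for Cldn5, 0.64 to 0.94 for Cldn11 and -0.0068 to 0.48 for Cldn12. From CPM, with no length, the share of Cldn11 was 5.31% in wild type, 6.03% in Hoxa-/- Hoxc+/-, 5.65% in Hoxa+/- Hoxc-/- and 8.61% in double mutants, and double mutant replicate 24 (6.45%) then fell below wild type replicate 37 (6.46%) and Hoxa-/- Hoxc+/- replicate 20 (6.57%).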
